A study of Mus musculus with 6 samples.

Results

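The regions described here were 1791 stretches of mouse chromatin, in primary cardiac fibroblasts, at which the CUT&Tag signal of one set of libraries rose with TGF-b and fell again when an siRNA was added. In CUT&Tag a transposase tethered by an antibody cuts the DNA near the antibody's target, and the reads pile up there. The 6 libraries carry a T or an S in their labels. Since TAZ and SRF were the factors profiled, T was taken to mean TAZ and S to mean SRF, although no label names an antibody. Each set of 3 libraries held 1 library of cells labelled NC, 1 of cells given TGF-b, and 1 of cells given TGF-b together with an siRNA, labelled SiTAZ for the T libraries and SiSRF for the S libraries. The study describes an siRNA against Piezo2 in mouse cardiac fibroblasts, and the design text of the series speaks of Tet3 knockout by a Cre virus, so the siRNA target and the genotype are left as the labels give them, with NC not spelt out. With 1 library per condition the treatments could not be tested, and the values below describe these libraries.

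TAZ is a coactivator without a DNA-binding domain of its own. It enters the nucleus when Hippo signalling is low or when cells sit on a stiff matrix, and it binds DNA mainly through the TEAD factors, often at enhancers that also hold AP-1. SRF binds the CArG box of cytoskeletal and smooth muscle genes and works with the actin-regulated cofactors of the MRTF family. TGF-b is the cytokine best known for turning cardiac fibroblasts into contractile, matrix-producing myofibroblasts, a step in which both factors are known to take part.

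The regions were chosen from the authors' normalized read densities. Regions of the T set table of NC with TGF-b were joined to those of the T set table of TGF-b with siRNA by an overlap of 1 bp, which gave 58627 joined regions outside the mitochondrial genome. A region was kept where its TGF-b density was at least 10, was at least 2-fold that of NC, and fell to at most 0.5 of itself with siRNA. Of the 11938 joined regions with a density of at least 10, the rule took 15.0%, which is 3.05% of all joined regions. A further 1962 regions were raised with TGF-b and not lowered 2-fold with siRNA, 2414 were lowered with siRNA without having been raised, and 5771 were neither. Since the densities chose the regions, the rise and the fall are a description, and both ratios share the TGF-b library, so that a high count in that library enters both.

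The chosen regions themselves are not shown as sequence, because the tables use GRCm39 and that genome was not used here. The RefSeq promoter windows of the older build GRCm38.p6 were therefore matched to the genes through the authors' transcript names. Of the 840 chosen regions within 1 kb of a TSS, 454 matched a window whose start lay within 100 bases, giving 436 different windows. Printed below are the 250 bases upstream of the start, 5′ to 3′ on the strand of the gene, for 8 promoters of genes described below. They were chosen after their values and motifs were seen, to show windows with and without a match, so their motif count is not a share of the set. Nr1d2 has one of the highest densities, Ahnak has 3 chosen regions, Sav1 is a Hippo gene, Ccnd3 and Cdc25a are cell cycle genes, Cox5a is a respiratory chain gene, and Fermt2 and Actn1 are adhesion and actin genes. The printed bases are not the chosen regions, and a marked motif need not lie inside one. Capitals mark the TEAD motif GGAATG, on either strand, and the CArG box.
Nr1d2: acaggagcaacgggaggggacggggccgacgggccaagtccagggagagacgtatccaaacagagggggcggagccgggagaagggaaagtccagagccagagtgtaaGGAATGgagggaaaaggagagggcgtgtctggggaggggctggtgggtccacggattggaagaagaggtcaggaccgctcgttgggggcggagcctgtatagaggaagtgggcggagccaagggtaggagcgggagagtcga
Ahnak: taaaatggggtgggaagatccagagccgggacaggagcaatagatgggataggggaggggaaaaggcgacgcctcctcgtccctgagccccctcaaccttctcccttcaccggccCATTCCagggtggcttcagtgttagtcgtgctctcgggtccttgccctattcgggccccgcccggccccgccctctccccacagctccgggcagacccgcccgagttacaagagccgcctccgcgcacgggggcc
Cox5a: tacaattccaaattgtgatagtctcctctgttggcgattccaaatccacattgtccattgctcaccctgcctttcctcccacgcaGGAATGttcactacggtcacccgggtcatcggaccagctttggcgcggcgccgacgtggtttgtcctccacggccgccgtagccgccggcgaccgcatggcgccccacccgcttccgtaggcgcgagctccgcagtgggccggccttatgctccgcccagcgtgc
Sav1: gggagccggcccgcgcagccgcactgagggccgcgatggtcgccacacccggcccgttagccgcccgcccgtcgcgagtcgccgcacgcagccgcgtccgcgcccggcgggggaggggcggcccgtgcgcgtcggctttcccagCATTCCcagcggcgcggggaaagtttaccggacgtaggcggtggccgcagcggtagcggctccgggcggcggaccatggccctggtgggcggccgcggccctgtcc
Ccnd3: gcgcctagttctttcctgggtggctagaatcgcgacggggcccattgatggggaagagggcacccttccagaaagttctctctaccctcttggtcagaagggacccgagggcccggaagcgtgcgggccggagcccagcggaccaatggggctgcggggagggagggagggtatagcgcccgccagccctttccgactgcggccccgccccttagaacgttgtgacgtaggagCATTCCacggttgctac
Fermt2: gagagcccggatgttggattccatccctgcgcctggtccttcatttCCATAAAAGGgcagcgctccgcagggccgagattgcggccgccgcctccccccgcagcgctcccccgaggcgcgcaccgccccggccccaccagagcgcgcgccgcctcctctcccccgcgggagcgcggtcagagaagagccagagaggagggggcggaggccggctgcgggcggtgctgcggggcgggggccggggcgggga
Actn1: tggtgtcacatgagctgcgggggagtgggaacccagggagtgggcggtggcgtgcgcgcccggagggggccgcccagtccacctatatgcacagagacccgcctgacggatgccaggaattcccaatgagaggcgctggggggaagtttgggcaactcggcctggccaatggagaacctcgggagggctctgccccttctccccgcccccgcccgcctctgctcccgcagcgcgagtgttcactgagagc
Cdc25a: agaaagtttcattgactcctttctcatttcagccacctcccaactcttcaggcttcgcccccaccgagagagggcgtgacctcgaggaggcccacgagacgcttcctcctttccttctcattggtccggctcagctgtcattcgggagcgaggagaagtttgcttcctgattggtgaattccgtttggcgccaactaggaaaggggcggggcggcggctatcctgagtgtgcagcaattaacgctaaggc

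The windows lay at chr14:18239107-18239356 (minus strand) for Nr1d2, chr19:8989034-8989283 (plus) for Ahnak, chr9:57520982-57521231 (plus) for Cox5a, chr12:69987003-69987252 (minus) for Sav1, chr17:47593217-47593466 (plus) for Ccnd3, chr14:45530066-45530315 (minus) for Fermt2, chr12:80260364-80260613 (minus) for Actn1 and chr9:109875329-109875578 (plus) for Cdc25a. The TEAD motif stood once in the first 5 of these, with its first base at −142, −135, −165, −106 and −17 from the start. The CArG box stood in the Fermt2 window alone of the 8. Neither motif, nor the AP-1 motif TGANTCA or the SMAD motif CAGACA, had a match in the printed windows of Actn1 and Cdc25a.

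Across the 436 matched windows of 300 bases, which also hold the first 50 bases of the transcript, the TEAD motif was found on either strand in 53 (12.2%, Wilson 95% interval 9.41 to 15.6), the AP-1 motif in 13 (2.98%), the CArG box in 7 (1.61%) and the SMAD motif in 61 (14.0%). In all 32851 windows of the table the same motifs were found in 14.7%, 7.81%, 1.63% and 21.0%. In the windows of other regions with a density of at least 10 they were found in 11.7%, 4.69%, 1.42% and 13.9%. The windows of the chosen regions had a median GC content of 62.3% and a median CpG observed over expected ratio of 0.82, against 63.0% and 0.79 for the other dense regions and 52.7% and 0.38 for all windows. Fewer than 80% of the chosen promoter regions matched a window, so a comparison of the chosen set with other sets on motifs or base composition is void, and the shares describe the matched windows only.

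The libraries differed widely in how many peaks the authors called. In the T set 127023 regions were called in NC, 53111 in TGF-b and 134570 in TGF-b with siRNA, and in the S set 27975, 25882 and 28727. Over all regions of a table, the median log2 ratio was −0.65 for TGF-b over NC and 0.97 for siRNA over TGF-b in the T set, the opposite of the direction in which the regions were chosen. At least a 2-fold rise with TGF-b was seen at 17.3% of 170877 regions, and at least a 2-fold fall with siRNA at 16.2% of 180104. Of the fibroblast markers 4 of 7 had a region within 1 kb of a transcription start site (TSS), against 2 of 4 cardiomyocyte, 1 of 3 endothelial and 2 of 3 macrophage markers. Acta2, at 35 NC reads, was the highest of the fibroblast markers and Cdh5, at 39, of the others. CUT&Tag measures chromatin association and not expression, and these counts do not check the labelled cell type.

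Most of the chosen regions were thinly covered. A density counts reads in a window of 2 kb, at about 0.5 per read. The lowest, median and highest of the 1791 regions had 0, 8 and 109 reads in NC, 18, 25 and 273 reads with TGF-b, and 0, 4 and 85 reads with siRNA. The TGF-b library held 18 to 25 reads at 911 regions, more than 50 at 195 and more than 100 at 23. NC had 3 reads or fewer at 431 regions and none at 166, the siRNA library 3 or fewer at 771 and none at 299, and both were at 3 or fewer at 284. The rise on the log2 scale ranged from 1.0 to 5.37 with a median of 1.75, and the siRNA over TGF-b ratio ranged from −5.45 to −1.0 with a median of −1.92. A rise of at least 4-fold was seen at 717 regions, a fall of at least 4-fold at 833 and both at 399. Raw reads with siRNA, not scaled for the depth of the libraries, were fewer than in NC at 1248 regions (69.7%), equal at 179 and more at 364, and they were fewer at 66.3% of the other dense regions.

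**Figure D1:**
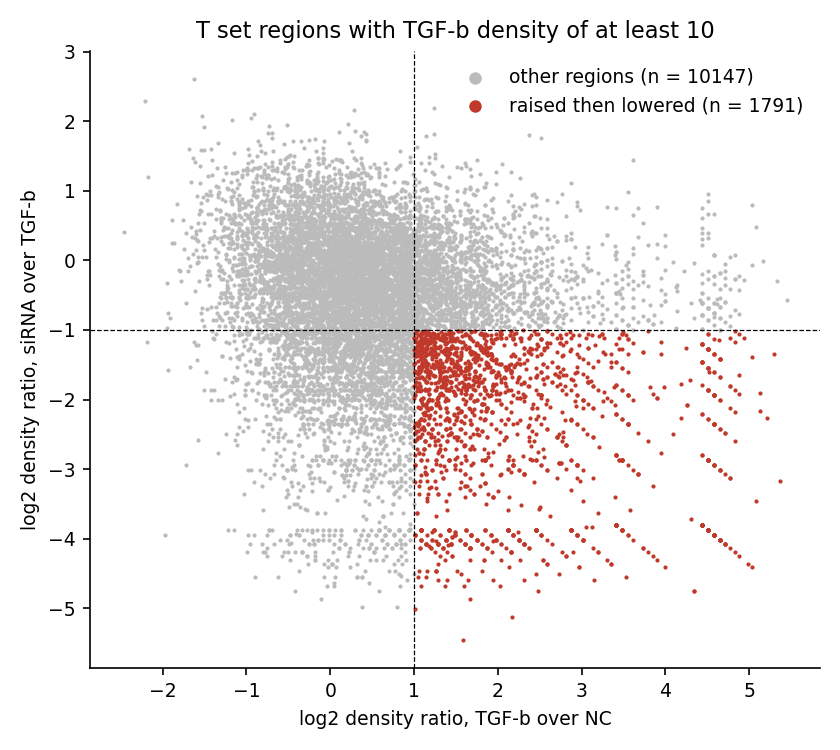
Each point is 1 of the joined T set regions with a TGF-b density of at least 10, placed by the log2 density ratio of TGF-b over NC (horizontal) and of siRNA over TGF-b (vertical), with the 1791 chosen regions in red, the other 10147 in grey and dashed lines at the 2-fold thresholds. The cloud of regions runs across both dashed lines without a gap, and the stripes at the lower right are regions with 0, 1 or 2 reads in NC or siRNA.

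The thresholds cut through a continuum. Just inside the density limit were regions in introns of Agxt and of Foxo3, a forkhead factor of stress responses, both at a density of 10.05, and just outside it regions at Nuf2, a kinetochore gene, and Ros1, both at 9.98. Just inside the rise were Gga1 and Steap2, each with 14 NC and 28 TGF-b reads. Bcl10, an adaptor of NF-kB signalling, with 60 and 128 reads, and Mcu, the pore of the mitochondrial calcium uniporter, with 15 and 30 reads, fell just short of it, and all 4 log2 ratios round to 1.0. At the limit of the fall, Lonrf1 and an unassigned region of chromosome 1 were in, and Gm4890 and Hkdc1 were out, with log2 ratios that all round to −1.0.

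The 10 regions with the highest TGF-b density all lay within 1 kb of a TSS and carried reads in all 3 libraries. The highest was a region at the promoter of Brpf1, a subunit of the MOZ and MORF histone acetyltransferase complexes (chr6:113283267-113283835, GRCm39), with 109 reads in NC, 273 with TGF-b and 85 with siRNA. Its density was 57.8 in NC and 130.4 with TGF-b in one table, and 115.2 with TGF-b and 51.1 with siRNA in the other, a log2 rise of 1.17 (counting interval 0.86 to 1.502) and a log2 fall of −1.17 (−1.53 to −0.83). TGF-b stood above both NC and siRNA, as the rule requires. The NC and siRNA densities are on different scales and were not compared.

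A pair of regions at Ppp2r3d, a regulatory subunit of protein phosphatase 2A, had 97, 237 and 56 reads and 72, 220 and 49 reads in NC, TGF-b and siRNA. They lie within 1 kb of each other, and so do the regions at Nr1d2, which encodes the circadian repressor REV-ERB beta, with 68, 186 and 47 reads upstream of the TSS and 79, 184 and 53 downstream of it. Windows of neighbouring regions overlap, so these pairs share reads and are not separate observations. Of the 1791 regions, 230 had another chosen region with its centre less than 2 kb away, and the set formed 1675 separate runs.

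Ski, the corepressor that binds SMAD proteins and dampens TGF-b signalling, had the steepest rise of these 10 regions. Its promoter region (chr4:155307526-155307989) held 29 reads in NC, 158 with TGF-b and 41 with siRNA, a log2 rise of 2.35 (1.82 to 2.96) and a fall of −1.43 (−1.95 to −0.96). With siRNA it stayed above NC in raw reads, unlike the other 9, which all had fewer reads with siRNA than in NC. Those at Nmt2, an N-myristoyltransferase, with 59, 173 and 51 reads, at Nfya, a subunit of the CCAAT-binding factor NF-Y, with 67, 154 and 37, at Vkorc1l1 with 60, 148 and 50, and at Usp22, the ubiquitin protease of the SAGA complex, with 47, 146 and 46, had log2 rises between 1.09 and 1.54.

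**Figure D2:**
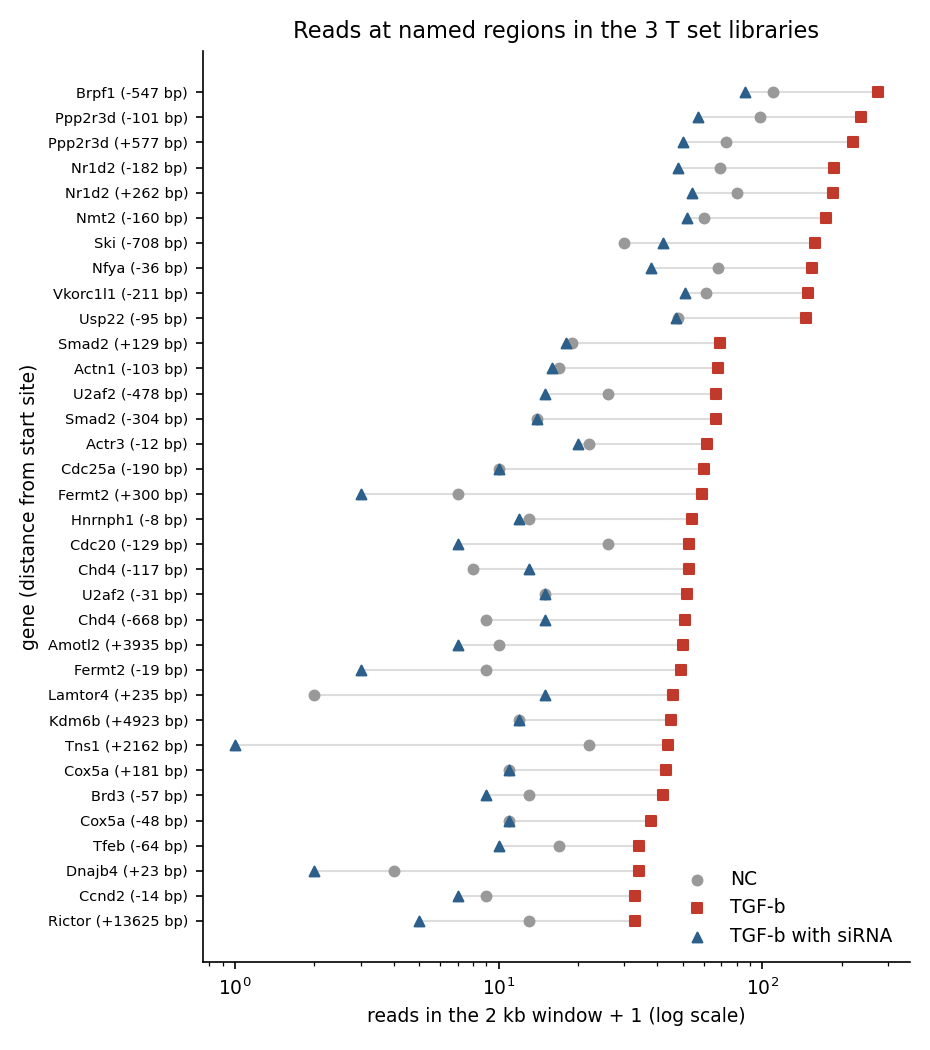
Reads plus 1 in the 2 kb window (horizontal, log scale) in the NC (grey circle), TGF-b (red square) and TGF-b with siRNA (blue triangle) libraries at the 10 regions of highest density and the 25 densest regions of listed genes, labelled with the gene and the distance from its start site. TGF-b is the highest of the 3 at each region, as the rule requires, and the NC and siRNA symbols fall on either side of each other, with Lamtor4 lowest in NC and Tns1 lowest with siRNA.

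The deepest reversals were read from almost empty libraries. An intronic region of Cerk, ceramide kinase (chr15:86054393-86054591), had 0 reads in NC, 28 with TGF-b and 0 with siRNA. Against a floor of 3 reads per library this is at least 8.18-fold higher with TGF-b than in NC and at least 5.31-fold lower with siRNA. Rgs8, a regulator of G protein signalling, had 0, 22 and 0 reads at its 5′ UTR, at least 6.53-fold higher and at least 4.22-fold lower. The regions at Fam171a2 and at the promoter of Auts2, a gene of neuronal development that associates with Polycomb complexes, had the same counts of 1, 36 and 0 reads, a log2 rise of 4.34 (2.77 to 7.83) and a fall of at least 6.76-fold. The others of the 10 were at Gm13052 (0, 25 and 0 reads), Gm39158 (0, 23 and 0), C030047K22Rik (0, 22 and 0) and at 3 places with no gene assigned. Of the 10, those at Auts2 and Rgs8 were within 1 kb of a TSS.

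Over all densities of at least 10, promoters made up a smaller share of the chosen regions than of the other regions. By the authors' annotation 589 lay in introns (32.9%), 539 in promoters within 1 kb (30.1%), 357 had no gene assigned (19.9%), 148 lay in 5′ UTRs (8.26%), 95 in exons, 26 in 3′ UTRs, 19 downstream of genes and 18 in promoters 1 to 3 kb away. Promoters of both kinds made up 31.1% (Wilson 95% interval 29.0 to 33.3), against 41.3% (39.2 to 43.5) of the regions raised only and 37.0% (36.1 to 37.9) of all other dense regions. The regions lowered only stood at 32.4% (30.6 to 34.3), close to the chosen regions, so the lower share is not particular to them. Of all joined regions, 7038 of 58627 were promoters. The intervals cover counting error only, and neighbouring regions are not independent. Counted by distance, 840 regions (46.9%) lay within 1 kb of a TSS, against 54.9% of those raised only and 49.1% of other dense regions. The median distance to a TSS, over the 1434 regions with a gene, was 356 bases, against 174 for those raised only and 371 for those lowered only.

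**Figure D3:**
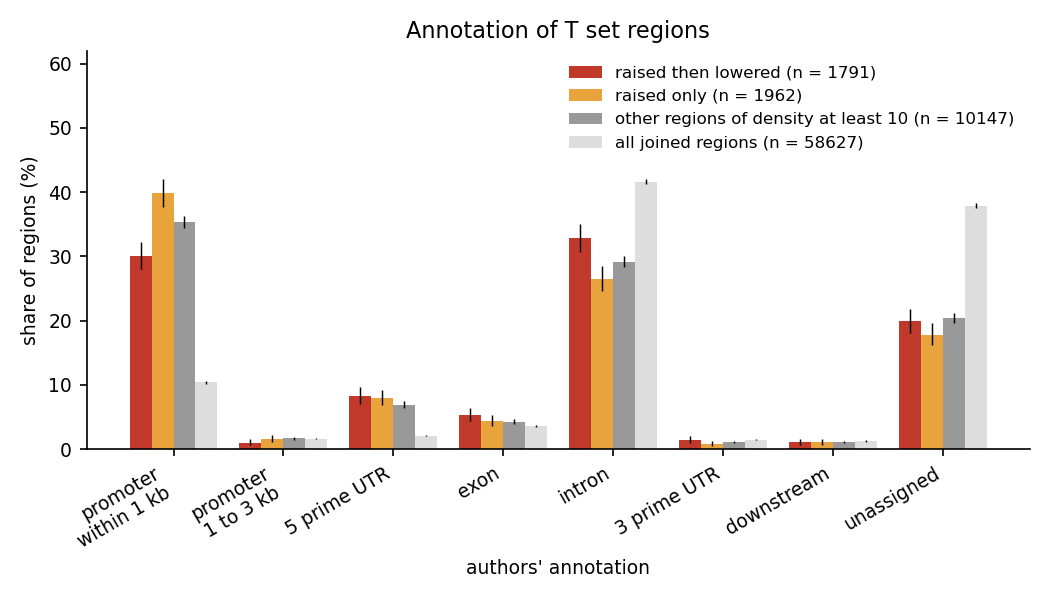
Share of regions (vertical, %) in each class of the authors' annotation for the 1791 chosen regions (red), the 1962 raised only (orange), the 10147 other joined regions of density at least 10 (dark grey) and all 58627 joined regions (light grey), with Wilson 95% intervals as bars. The chosen regions stand below the raised only and other dense regions at promoters within 1 kb and above them in introns. The regions lowered only, which are not drawn as a group of their own, had 30.7% and 31.9% there, close to the 30.1% and 32.9% of the chosen regions.

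Counted the other way round, of the 3753 dense regions raised with TGF-b, 47.7% fell 2-fold with siRNA. The share was 40.8% at promoters within 1 kb (539 of 1320) and 53.1% in introns (589 of 1110). Depth moved with annotation: the median reads in NC, TGF-b and siRNA were 11, 34 and 7 at promoter members, 6, 23 and 3 at intronic members and 5, 22 and 3 at members with no gene. The part of depth in the lower promoter share was not tested beyond the values by density that follow.

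Within bins of density the picture turned. At densities of 10 to 12.5, where 726 of the 1791 regions fell, 26.0% (23.0 to 29.3) of the chosen regions and 33.3% (31.6 to 35.0) of the other regions lay within 1 kb of a TSS. At 20 to 30 it was 78.4% (73.1 to 82.9) of the chosen regions against 62.6% (60.4 to 64.8), and at 30 to 50 it was 92.5% (85.8 to 96.1) against 76.8% (73.9 to 79.5). The rule itself took 726 of 3634 regions at densities of 10 to 12.5 and 8.52% at 50 or more. The order of the shares thus differed between bins, with the chosen regions lower at 10 to 12.5 and higher from 20 to 50.

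**Figure D4:**
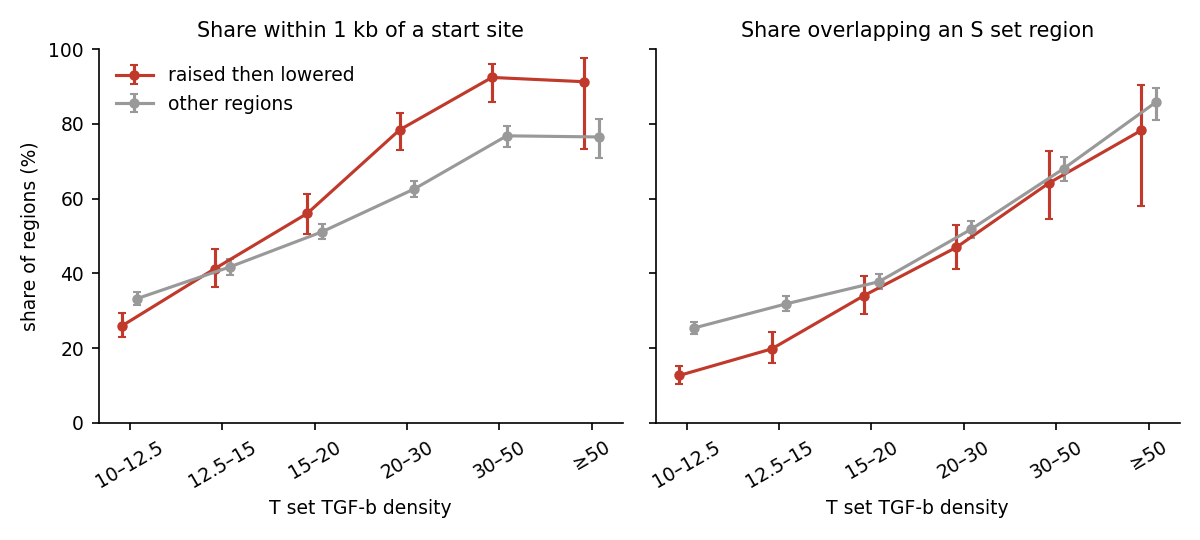
Share of regions (vertical, %) within 1 kb of a start site (left) and overlapping an S set region (right) in bins of T set TGF-b density (horizontal), for the chosen regions (red) and the other dense regions (grey), with Wilson 95% intervals. On the left the red line starts below the grey one, at 26.0% against 33.3%, and ends above it, and on the right it starts at 12.7% against 25.4% and comes near it at higher densities.

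The chosen regions were spread over the genome. Of the dense regions on a chromosome, the rule took from 12.6% on chromosome 3 to 17.6% on chromosome 1, with 17.5% on X (24 of 137). They were assigned to 1305 genes, of which 1188 had 1 region, 105 had 2 and 12 had 3. The 12 were Gm14003, Rev1, Ahnak, Shb, Mir99ahg, Pde4d, Tead1, Tspan9, Nrxn3, Tle5, Kcnj6 and Camta1. At Rev1, a DNA polymerase of translesion synthesis, all 3 lay around the TSS and held 12 NC reads and 12 siRNA reads each, with 49, 47 and 43 TGF-b reads, so they are 1 site counted 3 times. At Pde4d, a cAMP phosphodiesterase, the regions lay in introns, −42151, 40193 and −80588 bases from the nearest start, with 3, 20 and 5 reads, 8, 22 and 7 reads, and 6, 40 and 12 reads. Pde4d had 27 joined regions, 4 of them dense, and Rev1 had 3, all of them dense and chosen. At Ahnak, which encodes a very large scaffold protein of the membrane cytoskeleton, the region at the start had 21, 71 and 14 reads, and those in an intron 29278 and 30055 bases away had 6, 24 and 3 and 6, 23 and 3, from windows that overlap.

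Shb, an adaptor of receptor tyrosine kinases, had 16, 54 and 8 reads at its promoter, and 3, 29 and 6 and 4, 30 and 6 reads in an intron, where the windows overlap. The counting intervals of the rise at the promoter and in the intron overlap. Tspan9, a tetraspanin, had 4, 19 and 2 reads at its promoter, 7, 23 and 0 in the intron behind it and 15, 32 and 8 in an intron far from it. Mir99ahg, the host gene of a microRNA cluster, had the steepest rise of these genes, in an intron (chr16:77276781-77277061) with 2 reads in NC, 54 with TGF-b and 11 with siRNA, a log2 rise of 4.29 (2.95 to 6.75). Its other regions had 6, 24 and 7 reads at a promoter and 8, 20 and 1 in an intron. The regions at Gm14003 had 20, 44 and 6, 21, 55 and 11, and 21, 54 and 11 reads, the last pair from the same place.

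The authors' classes split the set by depth. At 1284 regions (71.7%) the peak was called in the TGF-b library alone in both tables. That share was 27.6% of the other dense regions and 69.3% of all joined regions. The calls come from the same libraries that chose the regions, so these shares only describe the choice. At 224 regions the peak was called in NC and TGF-b but not with siRNA, at 141 in TGF-b and siRNA but not NC, and at 127 in all. Median TGF-b reads were 23 where TGF-b alone was called and 57 where all were. At the remaining 15 regions the peak was called only in NC against TGF-b and only in siRNA against TGF-b, although the TGF-b window held more reads. They included Midn (24, 71 and 17 reads), Cdon (25, 53 and 8), the Hedgehog coreceptor, one of the Rev1 regions, Ocel1 (21, 44 and 8), Calm3 (13, 36 and 8), a calmodulin gene, Scrib, Sptan1 and Plcl2. The widths of these 15 had a median of 115 bases, against 174 over the set.

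The lists of genes tied to TAZ held chosen regions at a share near that of all genes. The lists were written with results of these data known, and are set beside the 15.1% of dense regions with a gene that were chosen (1434 of 9507). For the YAP/TAZ targets 6 of 47 dense regions were chosen, and for the Hippo and TEAD genes 4 of 33. Tead1 is on both lists, so its 3 chosen regions enter both counts. Amotl2, an angiomotin that binds YAP and TAZ and is itself one of their targets, had the most TGF-b reads of these genes, with an intronic region (chr9:102603580-102603756) of 9, 49 and 6 reads, a log2 rise of 2.37 (1.48 to 3.49) and a fall of −2.37 (−3.75 to −1.37). Its relative Amotl1 had 9, 22 and 2 reads at its 5′ UTR. Tead1, the gene of a DNA-binding partner of TAZ, had 3 intronic regions, with 6, 24 and 5 reads, 10, 25 and 6 reads, and 3, 26 and 1 reads, the last with a log2 fall of −3.30 (−6.79 to −1.71). Sav1, the scaffold of the Hippo kinases, had 13, 26 and 8 reads at the promoter printed above, just past the threshold of the rise at 1.0 (0.11 to 2.0). Asap1 had 4, 22 and 0 reads. The intervals of Sav1 and of Amotl1 came close to 0, and those of Amotl2 did not.

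The list of SRF targets and cofactors had 24 dense regions and none of them was chosen. Of the myofibroblast and matrix genes 1 of 22 was, a region of 12, 24 and 6 reads at the 5′ UTR of Col1a1, which encodes a chain of type I collagen, with a log2 rise of 1.01 (0.08 to 2.04). For the TGF-b pathway 5 of 32 were chosen. Beside Ski these were a pair of overlapping windows at the start of Smad2, a receptor-activated SMAD, with 18, 68 and 17 and 13, 66 and 13 reads, Id1, a helix-loop-helix inhibitor and BMP target, with 6, 26 and 8, and Smurf1, a ubiquitin ligase of SMAD proteins and receptors, with 7, 19 and 1.

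Cell cycle genes had 6 of 22 dense regions chosen (27.3%), the highest share of the 14 lists. They were all 3 D-type cyclins, Ccnd1 (4, 25 and 8 reads), Ccnd2 (8, 32 and 6) and Ccnd3 (7, 25 and 4), which drive cells into the cycle, the phosphatases Cdc25a (9, 59 and 9) and Cdc25b (0, 18 and 0), and Cdc20 (25, 52 and 6), an activator of the anaphase-promoting complex. At its promoter (chr9:109704361-109704554) Cdc25a had a log2 rise of 2.62 (1.76 to 3.74) and a fall of −2.11 (−3.23 to −1.25), with equal raw reads in NC and siRNA. Cdc25b, with no read in either, was at least 5.43-fold higher with TGF-b than in NC, against the floor. Lysosome and mTOR genes had 5 of 20 chosen, at Rictor, Tfeb, Tsc2 and Lamtor4, whose 5′ UTR went from 1 read to 45 and 14. Splicing factors had 4 of 18, with U2af2 (25, 66 and 14 and 14, 51 and 14 reads), Hnrnph1 (12, 53 and 11) and Prpf19. Chromatin regulators had 7 of 34, with the remodeller Chd4 (7, 52 and 12 and 8, 50 and 14), Kdm6b (11, 44 and 11), a demethylase of H3K27, Brd3, Kmt2c and Eed. None of these shares was tested against 15.1%. They count regions, and regions of the same gene, as at U2af2 and Chd4, can share reads when their windows overlap.

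Respiratory chain and ATP synthase genes had 5 of 25 chosen, at Cox5a (10, 42 and 10 and 10, 37 and 10 reads), Cox7a2, Ndufb4 and Atp5f1c. Regions of the same gene, as at Cox5a, can share reads when their windows overlap. Ribosomal protein genes had 2 of 32, Rps20 (0, 21 and 4 reads) and Rps23 (1, 19 and 0), proteasome genes 2 of 16, Psma2 and Psmc5, and chaperones 1 of 27, Dnajb4 (3, 33 and 1). Actin, myosin and adhesion genes had 6 of 61 (9.84%). The regions at Fermt2, kindlin-2, an activator of integrins, had 6, 58 and 2 reads in an exon (chr14:45766895-45766992) and 8, 48 and 2 at the promoter printed above (chr14:45767480-45767708), with log2 falls of −3.83 (−6.29 to −2.50) and −3.57 (−6.02 to −2.22), and their windows overlap. Actn1, alpha-actinin-1, had 16, 67 and 15 reads at its promoter (chr12:80307097-80307400), a log2 rise of 2.01 (1.30 to 2.85) and a fall of −1.61 (−2.48 to −0.89). Actr3, of the Arp2/3 complex, had 21, 61 and 19, and Arpc2, of the same complex, had 2, 23 and 0. Tns1, a tensin of focal adhesions, had 21, 43 and 0 reads in an intron (chr1:74073995-74074265), a small rise of 1.01 (0.30 to 1.79) followed by a fall of at least 8.04-fold.

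The S set libraries took no part in the choice. Of the 1791 regions, 481 (26.9%, 24.9 to 29.0) overlapped an S set region, against 39.3% (38.4 to 40.3) of other dense regions. The gap was widest at the lowest density: at 10 to 12.5 the shares were 12.7% (10.4 to 15.3) and 25.4% (23.8 to 27.0), and at 20 to 30 they were 47.0% (41.0 to 53.0) and 51.8% (49.5 to 54.1). It was seen at promoters within 1 kb (48.2% against 57.8%) and in introns (11.5% against 22.6%). Among the other dense regions, the overlap share was 32.0% (30.1 to 33.9) for those lowered only and 37.3% (35.1 to 39.4) for those raised only. For those that were neither it was 43.1% (41.9 to 44.4).

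Where a region overlapped one of the S set, the S set medians lay near those of other dense regions, and no difference was tested. With TGF-b over NC, 284 of the chosen regions had a median S set log2 ratio of 0.43 (quartiles −0.09 and 0.93), against 0.36 (−0.23 and 0.92) at 2509 other dense regions and −0.20 over all S set regions. Before the authors' line these medians were 1.0, 0.92 and 0.36, so the sign over all S set regions rests on that line. At least 2-fold higher were 62 of the 284 (21.8%, 17.4 to 27.0), against 22.4% of the other dense regions and 17.4% of all S set regions. With siRNA over TGF-b, 449 of the chosen regions had a median S set log2 ratio of 0.15 (−0.28 and 0.65), against 0.19 at 3689 other dense regions and −0.21 over all. Before the authors' line the medians of this ratio were 0.089, 0.14 and −0.29, so that of the chosen regions was nearer to no change. At least 2-fold lower were 22 of the 449 (4.90%, 3.26 to 7.31), against 4.69% of other dense regions and 27.8% of all S set regions. The regions were chosen for a fall in the T set, while their median in the S set, whose siRNA is labelled differently, lay above 0. This contrast was not tested. Distance from start sites moved with the S set ratio: TGF-b over NC had a median of 0.54 at the 219 chosen regions within 1 kb of a TSS and 0.10 at the 65 others, against 0.52 and −0.20 for the other dense regions.

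**Figure D5:**
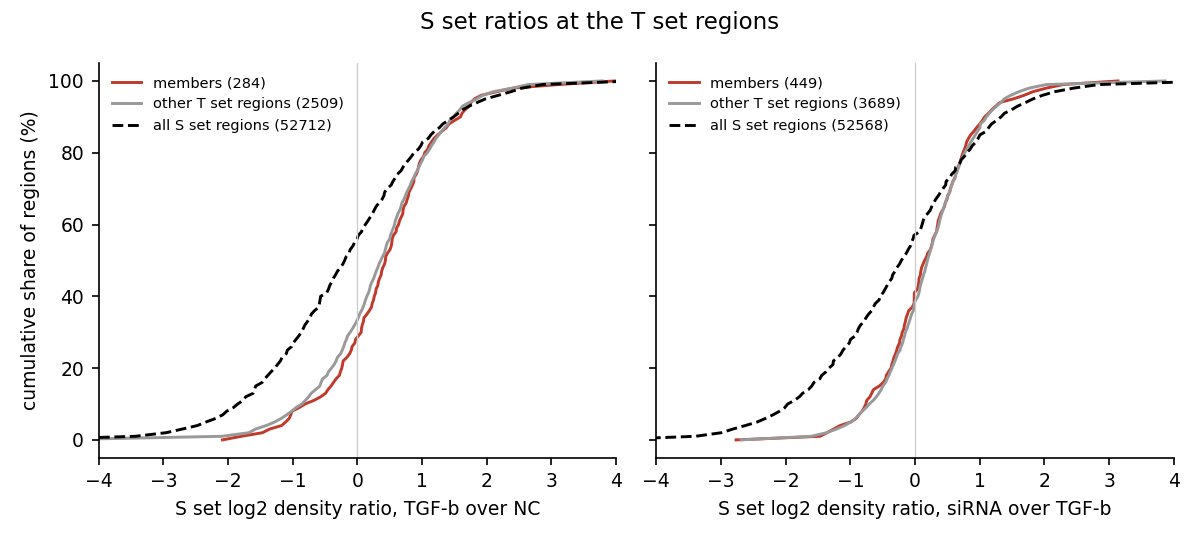
Cumulative share of regions (vertical, %) by S set log2 density ratio of TGF-b over NC (left) and of siRNA over TGF-b (right), at the chosen T set regions (red), the other dense T set regions (grey) and all S set regions (dashed). The red and grey curves run together in both panels, with medians of 0.43 and 0.36 on the left and 0.15 and 0.19 on the right, and the dashed curve lies to their left over its lower part.

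Only 7 of the 252 chosen regions present in both S set tables were raised and then lowered 2-fold in the S set too (2.78%, 1.35 to 5.62), against 3.54% of other dense regions and 22.1% of all joined S set regions. Among them were Rad23b, a factor of nucleotide excision repair, Gm57118, Gm9967, Kpna4, an importin alpha, Gm57255 and Gpr45. Rad23b had 22, 61 and 19 reads in the T set and 11, 63 and 20 in the S set, so that its promoter was the deepest covered of the 7 in both. Kpna4 had 7, 25 and 1 reads in the T set and 5, 30 and 12 in the S set. At Gpr45 the NC libraries held 1 read and 2 reads. The reverse order, lowered and then raised in the S set, was seen at 6 of the 252.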

How the data were processed

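CUT&Tag was done on 6 libraries. According to the study's methods, Bowtie2 aligned the reads to GRCm39 and peaks came from Masc2, presumably MACS2; neither version is stated. The submitters' processing notes name BWA 0.7.12 and mm10 instead. Scaffold names in the tables are those of GRCm39, so coordinates are given in that build. The authors deposited 4 tables of 2 libraries each, in the layout of MAnorm. The signal in them was computed by the authors before they were deposited as a normalized read density, reads plus 1 per kb in a window of 2 kb, rescaled along a line fitted to the shared peaks of both libraries, so a change common to shared peaks is removed and tables are not on 1 scale. The tables also hold the authors' fold changes and p-values, which were not used.

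When the line was undone, the reads came out whole to within 0.1 at every region of the 4 tables, and the TGF-b reads recovered from both tables were equal at all 1791 chosen regions. The procedure was tested on simulated data. Ratios were taken within a table. Intervals are Wilson 95% intervals of a share, or of a read ratio through its share, and cover counting error only. Folds against an empty library used a floor of 3 reads per library. The total depth of the libraries was not used. Python 3.11.15, pandas 2.3.3 and numpy 2.4.6 were used.

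The chosen regions and the 14 gene lists were set with earlier results of these data known. Named regions were the 10 of highest density, the 10 of deepest reversal, up to 8 genes with at least 3 regions, the 25 densest regions of listed genes, those nearest each threshold and those also reversed in the S set; the other genes with 3 regions, the rest of the listed genes, the 15 regions with no TGF-b call in either table and the printed promoters were chosen after their values were seen. Alternatives changed the fold, the density minimum, the overlap, the scaling, the floor and the regions admitted. DNA sequence at the regions themselves was not analysed here. The gene of 1 of the regions also reversed in the S set is not reported here.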

Additional observations from a re-analysis of the deposited data

Results flagged for a closer look

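At the 449 chosen regions with an overlapping S set region, the median S set log2 ratio of siRNA over TGF-b was 0.15, on the higher side of no change, while in the T set each of these regions fell by at least 2-fold with siRNA because the rule required it. At the other dense regions the S set median was 0.19, close to that of the chosen regions. The direction in the T set was fixed by the choice, so the values are given as a description. The T set and S set values were not tested against each other, with 1 library per condition, and antibody, siRNA label and library cannot be told apart.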

How the results depend on the processing

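The number of regions, 1791, followed the thresholds and the scaling. It was 3373 at 1.5-fold, 399 at 4-fold, 8256 at a density minimum of 5, 393 at a minimum of 20 and 5394 with ratios centred on the median of each table, which moves the median of all regions by 0.65 and 0.97 on the log2 scale. It stayed within 1.5 times of 1791, between 1284 and 2386, under the other 9 alternatives, of which 2 were added after seeing the data. Those 2 were counted among the 1791 regions only, from the libraries that chose them. Counting intervals excluded no change in both steps at 1754, and 1284 were called in TGF-b alone, so the choice largely set both counts. The floor and a limit of 500 reads per library could not change the count, since chosen regions held 18 to 273 TGF-b reads and fewer in NC and siRNA. The promoter share of 31.1% was 20.1% at 4-fold, 60.8% at a minimum of 20, 39.1% centred and 36.0% before the authors' line. The share called in TGF-b alone was 94.99%, 40.7%, 50.6% and 64.5% under the same 4 settings, and the share overlapping an S set region 13.0%, 53.4%, 35.4% and 30.9%. The median S set ratio of TGF-b over NC was 0.23 at 4-fold (26 regions), 0.72 centred and 1.06 before the line, and that of siRNA over TGF-b was 0.26 at 4-fold, 0.064 at a minimum of 20 and 0.36 centred. The share of matched promoter windows with the TEAD motif was 17.5% at 4-fold (57 windows). Where the setting itself does not show the cause, the cause was not tested. With 18 to 25 TGF-b reads at 911 regions and 3 or fewer reads in NC or siRNA at many, the depth limits each single ratio, and no replicate exists to show the spread between cultures. No paired analysis was possible because each condition had 1 library.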
